A study of Homo sapiens with 4 samples.

Results

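The ATP-binding cassette (ABC) transporter superfamily was examined in naive and arsenic trioxide (ATO) resistant NB4 cells. Its members were the probes whose gene name on the array is ABC followed by a subfamily letter from A to G and a number, except those of ABCA1 and ABCG1, which have 3 probes and were not included. This gave 65 probes for 44 genes, of 41000 probes for 30811 gene names on the array. The names alone decide membership, although the family itself was picked with earlier results of these data known.

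NB4 is an established human cell line from acute promyelocytic leukemia (APL) that carries the PML-RARA fusion, and an ATO resistant line was derived from it in-house. Total RNA came from 2 naive and 2 resistant flasks, and each flask was hybridized, with Cy3 label, to its own 1-colour Agilent array, 4 in all. The flasks are independent cultures, but the resistant line is a single clone, written as NB4-VM-AsR1 in the labels and as NB4-EV-AsR1 in the methods, which were taken for the same clone. Both lines were grown in RPMI with FBS, and the resistant cells were kept without ATO for 1 week before RNA was taken, so that no flask was under the drug at harvest. In RNA of a whole culture, fewer cells that express a gene and less of its RNA per cell cannot be told apart.

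ABC proteins bind and hydrolyse ATP in a nucleotide-binding domain and, in most members, couple this to moving a substrate across a membrane. Subfamily A moves lipids, B holds the P-glycoprotein drug pump together with mitochondrial and peptide transporters, C the multidrug resistance proteins and ion channel regulators, D the fatty acid transporters of peroxisomes, and G sterol and drug pumps, whereas E and F have no membrane domain and act on ribosomes. The multidrug resistance proteins ABCC1 and ABCC2 are known to carry glutathione conjugates, among them those of arsenic, which is why exporters are of interest in cells that resist ATO.

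Each probe is a 60-base oligonucleotide, given in the scanner files, and the 5 shown here lie in the conserved nucleotide-binding domain of their proteins, so that they show both what the family shares and what lets an array tell its members apart. In the first pair the capitals mark 9 codons that read the same residues in both proteins, in the stretch that follows the ABC signature motif.
ABCC6: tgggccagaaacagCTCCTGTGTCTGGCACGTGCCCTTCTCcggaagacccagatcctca
ABCC10: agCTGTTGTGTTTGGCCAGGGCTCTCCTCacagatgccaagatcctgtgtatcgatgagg
Although the residues were the same, 19 of the 27 bases in capitals were identical (70.4%), the rest differing between synonymous codons. In the second pair the capitals mark 6 shared codons around the histidine that contacts ATP, of whose 18 bases 11 were identical (61.1%).
ABCB6: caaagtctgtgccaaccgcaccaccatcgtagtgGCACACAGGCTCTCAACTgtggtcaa
ABCB10: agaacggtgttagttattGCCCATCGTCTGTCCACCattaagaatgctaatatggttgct
The probe for the P-glycoprotein gene ends at the start of the signature motif, where the capitals read leucine, serine and glycine.
ABCB1: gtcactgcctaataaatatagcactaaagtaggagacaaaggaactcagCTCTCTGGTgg
The ABCC6 probe lies at chr16:16244568-16244627 and the ABCB10 probe at chr1:229654037-229654096 of hg19, both on the minus strand. The scanner files give no position for the other 3.

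Every array had 45015 spots, and between 27921 and 28243 probes per array were well above background, the scanner software's call that a spot is brighter than its surroundings. No ABC probe was saturated. Values are the log2 of the processed signal minus the 75th percentile of its array, so that a value of 0 is the level of the 75th percentile, and levels of different probes are not comparable. A probe entered the limma test where, in the naive or the resistant line, neither array had it at background. The naive flasks differed from each other more than the resistant flasks did, with an SD of the log2 differences of 0.71 against 0.37 over all probes tested. Of the promyelocyte markers, 8 of the 9 genes listed had signal above background throughout, among them myeloperoxidase (MPO), whose probe was saturated on all 4 arrays, so that a difference between the lines cannot be read from it. Of these markers limma called ANPEP (CD13) lower in the resistant line, with a log2 change of -1.83 (adjusted p = 0.0112), and the granule proteins AZU1 and ELANE higher, with 1.17 (adjusted p = 0.0472) and 2.49 (adjusted p = 0.0169), ELANE being above background in 1 naive flask. Of 15 markers of other cell types 7 had such signal on every array. The collagens COL1A1 and COL3A1, the macrophage receptor CD163 and the beta globin HBB were not above background on any array, whereas the T cell marker CD3D was so in both naive flasks only and was at least 167-fold lower in the resistant line (adjusted p = 0.000755). Whether cells of another type had a part in the results was not tested.

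Of the 44 ABC genes, 24 had a probe well above background on all 4 arrays, 8 on some arrays and 12 on none. Subfamilies E and F, whose 4 genes act in the cytosol, were detected throughout. Subfamily A was the least complete of the larger groups, with 4 of its 11 genes detected on every array, against 4 of 9 in B and 7 of 12 in C. In subfamily D 3 of 4 genes and in subfamily G 2 of 4 were on all arrays.

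**Figure D1:**
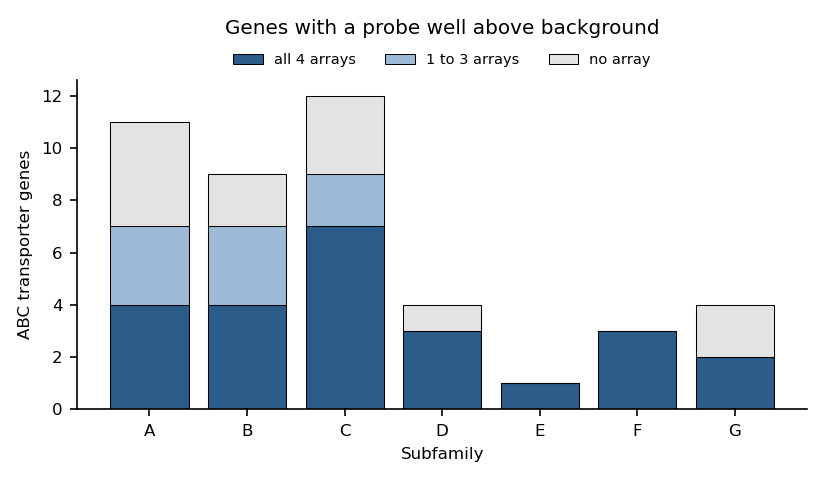
Number of ABC transporter genes (vertical axis) in each subfamily (horizontal axis), divided by whether at least 1 probe of the gene was well above background on all 4 arrays, on 1 to 3 of them or on none. Only subfamilies E and F had every gene on all 4 arrays, and subfamily A had 4 of its 11.

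The 12 genes without detectable signal were ABCA4, ABCA6, ABCA8, ABCA9, ABCB1, ABCB4, ABCC3, ABCC11, ABCC12, ABCD2, ABCG4 and ABCG8. Several are known for other organs, such as ABCA4, the retinoid transporter of photoreceptors, and ABCB4, the phospholipid pump of bile. Some genes that lie side by side in the genome differed in detection. In the chromosome 17 cluster of ABCA5, ABCA6, ABCA8, ABCA9 and ABCA10, the last was well above background on all 4 arrays (-3.81 and -4.73 in the naive, -4.23 and -3.98 in the resistant flasks) and ABCA5 on 1 array. On chromosome 2, ABCG5 was well above background on all 4 arrays (-4.37, -3.53, -4.04 and -3.76 in the same order), while ABCG8, with which it forms the sterol pump of liver and gut, was on none.

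In 5 of the 8 genes seen on some arrays no line had the signal in both flasks. ABCA5 was -8.60 and -5.22 in the naive and -8.58 and -8.88 in the resistant flasks. ABCA12, a lipid transporter of skin, was -8.61 and -4.45 against -8.59 and -8.89, and ABCB5, a pump described in melanocytes, was -8.60 and -4.78 against -8.57 and -7.73. All 3 were thus above background in the second naive flask alone. ABCC9, the regulator of a potassium channel, was above background in the first resistant flask alone, at -5.79 against -8.52, -7.44 and -8.64 in the others. ABCC13 is listed on chromosome 21, and its probes were designed on non-coding transcripts. Its brightest probe was above background in the second resistant flask (-3.40, others -8.48 or lower) and another in the first (-4.91, others -8.41 or lower). These genes were not tested.

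A total of 39 probes for 27 genes were tested, and 1 of them was called, that is, it passed an adjusted p of 0.05 (Benjamini-Hochberg, over all probes tested) with a difference of at least 2-fold. This is 2.56% of the members tested, and of all 28220 probes tested 5.27% were called, 2.3% higher and 2.97% lower in the resistant line. Without the test, 6 member probes (15.4%) differed at least 2-fold between the lines, against 12.3% of all probes. The flasks of the lines did not overlap in 23 member probes (59%), 10 of them higher and 13 lower in the resistant line, against 52.5% of all probes. The shares of the members thus lay near those of the array.

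The median log2 change of the 27 genes, each taken by its brightest probe over the 4 arrays, was -0.01, as it was over all 20957 gene names tested. The median size of the change without its sign was 0.31 in the ABC genes and 0.34 in all gene names. By subfamily, the median log2 change was 0.17 over 5 genes of A, 0.05 over 6 of B, -0.27 over 7 of C, 0.67 over 3 of D, -0.01 over 3 of F and -0.09 over 2 of G, and the single gene of E had -0.39. Differences between subfamilies were not tested. The count of called members depended on single flasks, being 3 without the first and 8 without the second naive flask, and 0 without either resistant flask, with 5 at an unadjusted p below 0.05 by limma in each of these last fits.

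**Figure D2:**
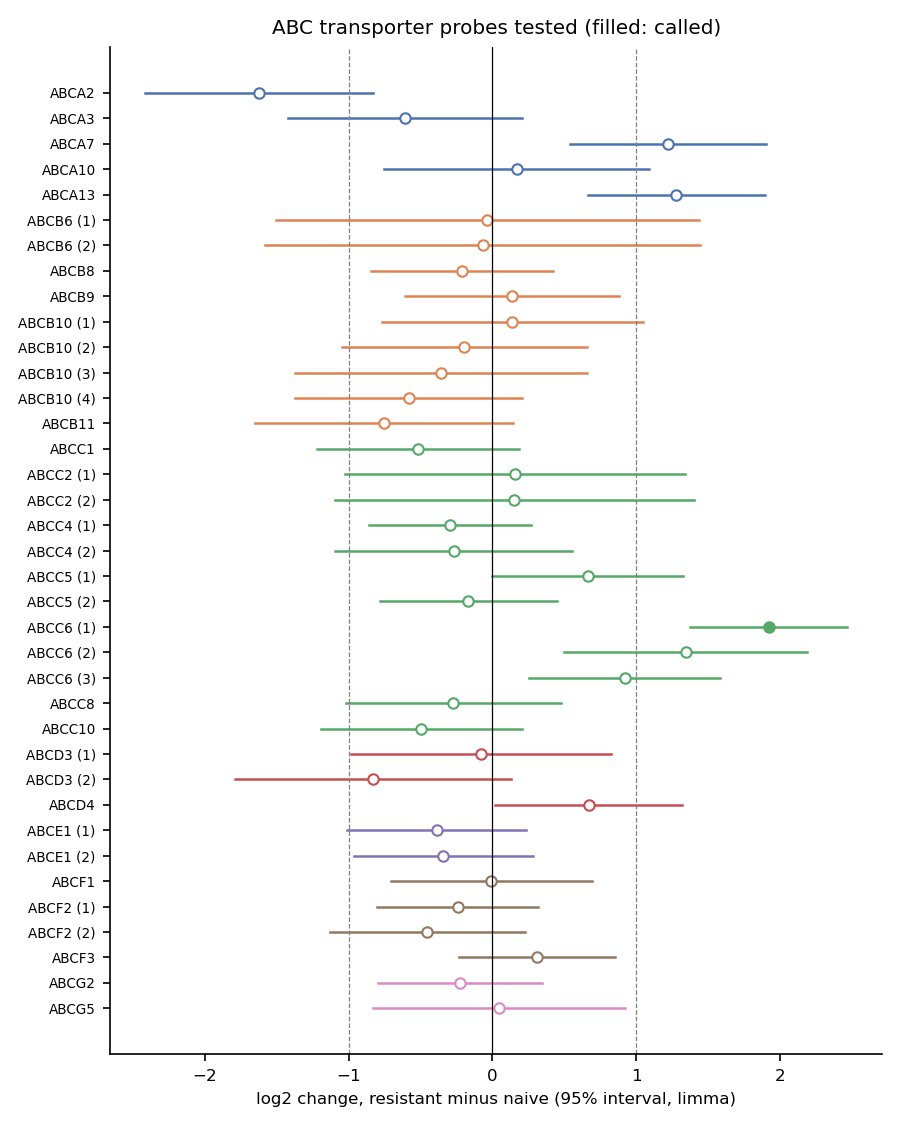
Log2 change between the lines, resistant minus naive (horizontal axis), for 37 of the 39 ABC transporter probes tested, in order of subfamily and gene and coloured by subfamily, with the 95% interval from limma as a line and numbers in parentheses where a gene has several probes, the brightest first. The filled point is the called probe, ABCC6 (1) at 1.92, the dashed lines mark 2-fold, and the intervals of most probes include 0.

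ABCC6 (multidrug resistance-associated protein 6, known for the ATP release from liver cells whose loss causes ectopic calcification) was the only called member. Its brightest probe, at chr16:16315075-16315134 of hg19 and designed on a short transcript of the gene, was at -2.19 and -2.16 in the naive flasks and at -0.23 and -0.27 in the resistant flasks. The second naive flask differed from the first by 0.03 and the second resistant flask by -0.03, and both resistant flasks were above both naive ones. ABCC6 rose by 1.92 on the log2 scale (standard error, SE, of 0.22, 95% interval 1.38 to 2.47, adjusted p = 0.00945), or 3.79-fold.

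The other ABCC6 probes, at the far end of the gene, had the same direction. The probe at chr16:16243855-16243914 was at -3.49 and -2.67 in naive and -1.81 and -1.67 in resistant cells, a log2 change of 1.34 (SE of 0.33, adjusted p = 0.107). The probe whose sequence is printed above was at -5.24 and -4.76 against -4.05 and -4.11, a log2 change of 0.92 (SE of 0.26, adjusted p = 0.145). Both were higher in each resistant flask than in either naive flask, and neither passed the test. The reference table lists 2 ABCC6 pseudogenes on chromosome 16, known to be copies of the 5′ part of the gene, and how far they add to the called probe, which lies towards the 5′ end of the gene, was not tested. The call was lost when a resistant flask was left out, with adjusted p = 0.112 without the first and 0.108 without the second, while the log2 change stayed between 1.91 and 1.94 with any flask left out. With the mean over its 3 probes, ABCC6 had a log2 change of 1.40 (adjusted p = 0.0464).

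The genes ABCA2, ABCA7 and ABCA13 also differed at least 2-fold without passing the test. ABCA2, a lipid transporter of lysosomes, was at -0.93 and -0.24 in the naive and at -2.07 and -2.34 in the resistant flasks. This was the lowest log2 change among the members, -1.62 (SE of 0.31, adjusted p = 0.0551), with both resistant flasks below both naive ones. ABCA7, a phospholipid transporter linked to phagocytosis, had the opposite direction and was at -2.66 and -2.13 against -1.20 and -1.14, a log2 change of 1.22 (SE of 0.27, adjusted p = 0.0776).

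ABCA13, which encodes the largest protein of the family, was at -6.30 in each naive flask, not well above background, and at -5.20 and -4.84 in the resistant flasks. On the processed signal it was therefore at least 2.32-fold higher in the resistant line. The probe entered the test through the resistant line alone, where it was higher. Its fitted log2 change, which uses the naive values as they are, was 1.28 (adjusted p = 0.0511). That size depended on the background correction, since with normexp the log2 change was 0.50, and 0.37 (adjusted p = 0.454) after bright local backgrounds were reset, both below 2-fold.

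Calls in these genes moved with the naive flasks. Without the second naive flask all 3 were called, at adjusted p = 0.0105 for ABCA2, 0.00421 for ABCA7 and 0.0134 for ABCA13. Without the first, ABCA2 (adjusted p = 0.00229) and ABCA13 (0.0154) were called. A line with a single flask has no spread of its own in such a fit and is taken to vary like the other line.

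**Figure D3:**
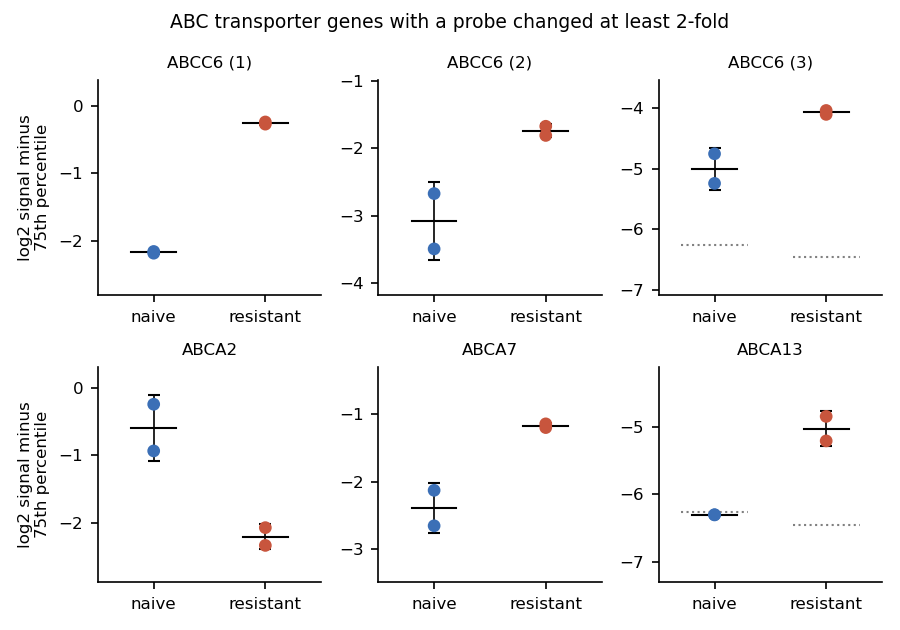
Log2 signal minus the 75th percentile of the array (vertical axes, each panel with its own range) in naive and resistant NB4 cells for the 3 ABCC6 probes and for ABCA2, ABCA7 and ABCA13. Points are flasks, horizontal lines and bars the mean and SD (n = 2), and dotted lines, where in range, the mean over a line's arrays of the lowest signal well above background; the groups do not overlap in any panel, and ABCA2 alone is lower in the resistant line.

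The drug efflux genes, which were to be given whatever their values, had no call. ABCB1, which encodes P-glycoprotein, has 10 spots of its probe on each array, of which 9 or 10 were kept, and 0 of them were well above background on any array. Its values were -8.35 and -7.95 in the naive and -8.29 and -8.30 in the resistant flasks, below the lowest signals well above background, which lay between -6.58 and -6.17. ABCC3, an exporter of bile acids and glucuronides, was likewise not above background, at -8.64 and -8.44 against -8.61 and -8.89. No fold change can be given for either gene.

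ABCC1 (multidrug resistance-associated protein 1) was at -1.10 and -1.17 in naive and at -1.37 and -1.94 in resistant cells, a log2 change of -0.52 (SE of 0.28, adjusted p = 0.385). Both resistant flasks were below both naive flasks, but the difference did not pass the test. ABCC2, its counterpart of liver and kidney, was at -3.21 and -1.88 against -2.28 and -2.49, so that the resistant flasks lay between the naive ones, and the second ABCC2 probe did the same at -3.35 and -1.91 against -2.55 and -2.40. The log2 change of ABCC2 was 0.16 (SE of 0.47, adjusted p = 0.888), and -0.51 without the first naive flask.

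ABCC4, an exporter of cyclic nucleotides, was at -4.03 and -4.06 in naive and -4.25 and -4.43 in resistant cells, a log2 change of -0.30 (SE of 0.22, adjusted p = 0.527). ABCC5, which carries nucleotide analogs, was at -0.03 and -0.49 against 0.31 and 0.48, a log2 change of 0.66 (SE of 0.26, adjusted p = 0.263). Its other probe went the other way by -0.17 (adjusted p = 0.756). ABCG2, the breast cancer resistance protein, was at -4.35 and -4.24 in naive and -4.43 and -4.62 in resistant cells, a log2 change of -0.22 (SE of 0.23, adjusted p = 0.638). ABCC4 and ABCG2 were lower and ABCC5 higher in each resistant flask than in either naive one, and none passed the test. Such a lack of overlap was seen in 52.5% of all probes tested.

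The 95% intervals from limma reflect the spread of 2 flasks per line for 1 probe of each gene on the processed signal. They cover neither the choice of background correction nor the response of a probe. Their upper ends on the log2 scale were 0.18 for ABCC1, 0.27 for ABCC4 and 0.34 for ABCG2, all short of 2-fold. For ABCC2 and ABCC5 they were 1.34 and 1.33, so that a change of 2-fold lies within the interval. With normexp the log2 change was 0.15 in ABCC4 and 0.20 in ABCG2. How large a rise could have gone unseen was not tested.

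**Figure D4:**
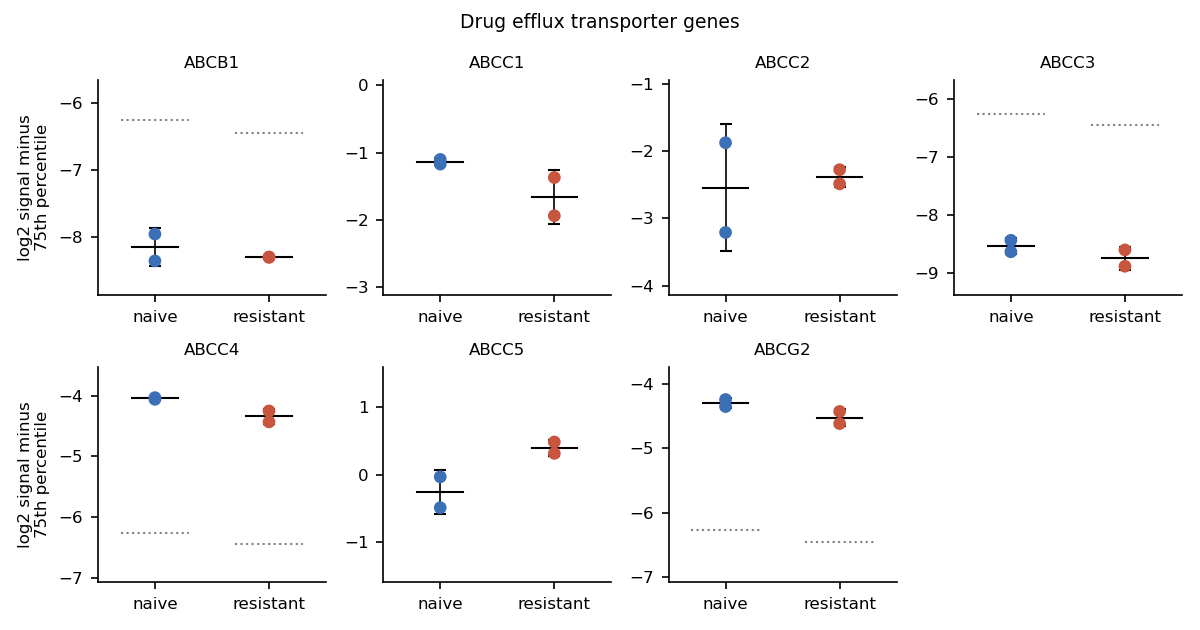
Log2 signal minus the 75th percentile of the array (vertical axes, each panel with its own range) in naive and resistant NB4 cells for the brightest probe of 7 drug efflux genes. Points are flasks, horizontal lines and bars the mean and SD (n = 2), and dotted lines, where in range, the lowest signal well above background averaged over the arrays of a line; ABCB1 and ABCC3 lie below it in both lines, and the naive flasks of ABCC2 enclose the resistant ones.

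Among the other transporters of subfamily C, ABCC10 (multidrug resistance protein 7), whose probe is printed above, was at -0.70 and -0.13 in naive and at -0.93 and -0.89 in resistant cells, a log2 change of -0.49 (adjusted p = 0.403). ABCC8, the sulfonylurea receptor, was at -4.96 and -4.30 against -4.96 and -4.84, a log2 change of -0.27, and the genes of the potassium channels it and ABCC9 regulate, KCNJ11 and KCNJ8, were not tested for lack of signal. ABCC1 and ABCC6 are neighbours on chromosome 16, where their nearest probes lie 7.77 kb apart. While ABCC6 was higher in both resistant flasks, ABCC1 was lower in both, without passing the limma test (adjusted p = 0.385). Flasks of the lines did not overlap in 52.5% of all probes tested.

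The organelle transporters of subfamily B given here did not pass the test. ABCB8, a transporter of the mitochondrial inner membrane, was at -3.31 and -3.54 against -3.46 and -3.81, a log2 change of -0.21. The probes of ABCB10, linked to heme synthesis, had log2 changes of 0.14, -0.19, -0.36 (the probe printed above) and -0.58, of which the second and the fourth are placed on chromosome 15, where the reference table lists 3 ABCB10 pseudogenes. ABCB6, a porphyrin transporter, was at -2.20 and -0.44 against -1.39 and -1.33, and its second probe, printed above, at -3.86 and -2.05 against -3.10 and -2.95. Here too the resistant flasks lay between the naive ones, and the log2 changes were -0.03 and -0.07.

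The other members of B were at the edge of detection. ABCB9, a lysosomal peptide transporter, was at -6.32 and -5.70 in naive and at -5.99 and -5.76 in resistant cells, a log2 change of 0.14, and its second probe, above background in the second resistant flask alone, was not tested. ABCB11, the bile salt export pump, was above background in both naive flasks (-6.30 and -5.75) and in neither resistant flask (-6.40 and -7.15). It entered the test through the naive line alone and was at least 1.34-fold lower in the resistant line. Its fitted log2 change, which uses the resistant values as they are, was -0.75 (adjusted p = 0.335).

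In subfamily A, ABCA3, the surfactant lipid transporter, was at -1.68 and -0.93 against -2.02 and -1.80, a log2 change of -0.61 (adjusted p = 0.381), and ABCA10 had 0.17. In subfamily D, ABCD4, which takes part in cobalamin transport from lysosomes, was at 0.94 and 1.28 in naive and at 1.63 and 1.93 in resistant cells, a log2 change of 0.67 (SE of 0.26, adjusted p = 0.252). ABCD3, the peroxisomal membrane protein for branched and dicarboxylic acids, was at -0.37 and -1.22 against -0.68 and -1.06 by its brighter probe, a log2 change of -0.08, and at -2.33 and -3.35 against -3.70 and -3.64 by the other, a log2 change of -0.83 (adjusted p = 0.32). The second of these was called without the second naive flask. Thus the log2 changes of these D genes had opposite signs.

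The soluble members did not pass the test either (adjusted p of 0.428 or higher). ABCE1, a ribosome recycling factor, was at 1.84 and 1.64 in naive and at 1.52 and 1.19 in resistant cells, and the log2 changes of its 2 probes were -0.39 and -0.34. ABCF1, which acts in translation initiation, was at 4.28 and 3.73 against 4.05 and 3.95, a log2 change of -0.01. ABCF2 was at 2.49 and 2.42 against 2.30 and 2.13, and its 2 probes had -0.24 and -0.45. All 4 probes of ABCE1 and ABCF2, which stand for 2 genes, were lower in each resistant flask than in either naive flask. ABCF3 was higher, from 1.35 and 1.34 to 1.65 in each resistant flask, a log2 change of 0.31. Of all probes tested, 52.5% had no overlap between the lines. The brighter ABCF2 probe and 1 ABCE1 probe are placed on chromosomes 3 and 1, where the table lists a pseudogene of each, and not on the chromosome of the gene. In all, 5 of the 65 member probes are off their gene's chromosome and 9 have no position. In subfamily G, ABCG5 had a log2 change of 0.05.

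Within lines, the SD of the log2 differences over the 39 member probes was 0.75 between the naive and 0.26 between the resistant flasks. The naive flasks differed at least 2-fold in 5 member probes (12.8%, against 13.2% of all probes tested) and the resistant flasks in 0 (2.05% of all probes). The 5 were both ABCB6 probes, with differences of 1.76 and 1.81 in favour of the second flask, both ABCC2 probes, with 1.33 and 1.44, and 1 ABCD3 probe, with -1.02. Separate probes of a gene agreed on this difference, which had 1 sign in all 9 genes with several tested probes. The change between the lines had 1 sign in 7 of them, the exceptions being ABCB10 and ABCC5.

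**Figure D5:**
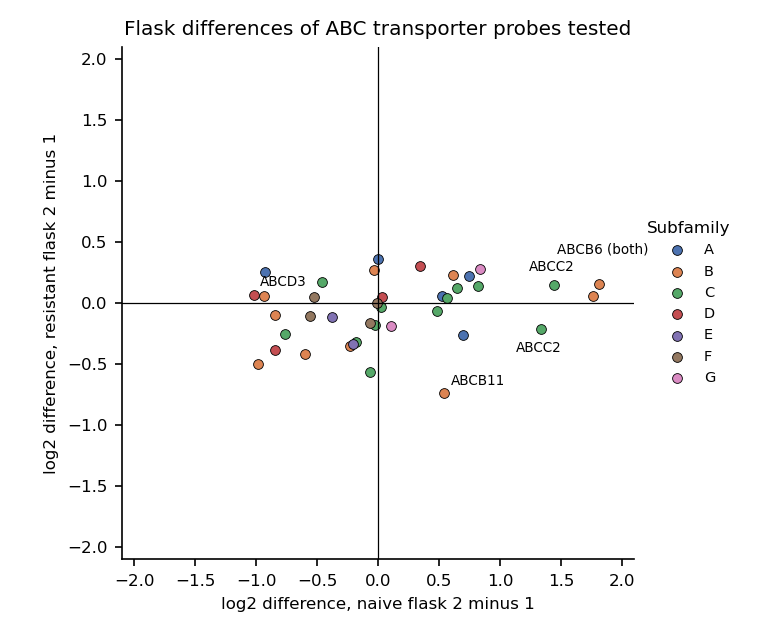
Log2 difference between the resistant flasks (vertical axis, flask 2 minus 1) against that between the naive flasks (horizontal axis, flask 2 minus 1) for the 39 ABC transporter probes tested, coloured by subfamily. Points spread along the horizontal axis to 1.81 (ABCB6) and along the vertical axis no further than 0.74 in size (ABCB11).

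A list of 28 genes that work with or beside ABC transporters was examined in the same fit, and 24 of them, with 33 probes, were tested. The count was 1 probe called higher and 0 lower, while 5.27% of all probes tested were called. The median log2 change of the genes was 0.23, against -0.01 over all gene names tested, and this difference was not tested. The called gene was MGST2, a microsomal glutathione transferase, at -0.05 and -1.02 in naive and 1.36 and 1.56 in resistant cells, a log2 change of 2.00 (SE of 0.37, adjusted p = 0.0486). Without either resistant flask it was not called, nor were any of the list, with 3 and 2 probes at an unadjusted p below 0.05 by limma. Of the ABC proteins that bear other names, the antigen peptide transporter TAP1 was at 2.18 and 3.001 in naive and at 1.02 and 0.91 in resistant cells, a log2 change of -1.63 (SE of 0.33, adjusted p = 0.0639), which did not pass the test. Higher by over 2-fold in the resistant line, also without passing, were GCLC, the catalytic subunit of the enzyme that limits glutathione synthesis, at 0.84 and 0.86 against 1.82 and 2.01, a log2 change of 1.06 (adjusted p = 0.068), and MVP, the major vault protein, at -1.0004 and -0.04 against 0.62 and 0.80, a log2 change of 1.23 (adjusted p = 0.164). TAP1, GCLC and MVP had no overlap between the lines, as had 52.5% of all probes tested, and GCLC and MVP were named after their values were seen. The probes of the other glutathione genes listed had log2 changes from -0.51 (GSTO1) to 0.52 (MGST3), and none of them was called. The partner of TAP1, TAP2, had a log2 change of -0.37 (adjusted p = 0.651), and the chloride channel CFTR was not above background on any array.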

How the data were processed

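The authors hybridized 1 flask per array and extracted the images with Agilent Feature Extraction 10.5.1.1, whose deposited processed signal is a background-subtracted intensity. They also deposited a log2 table from GeneSpring GX 11, in which each array was shifted to its 75th percentile, used here as an alternative (Pearson's r of at least 0.9998 with the values used here).

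The log2 of the intensity was taken in R 4.3.3. Control spots and spots flagged as outliers (100 to 248 per array) were left out, spots of a probe averaged and the 75th percentile subtracted. Lines were compared with limma 3.58.1 (lmFit and eBayes, tested on simulated data) over 28220 probes, with Benjamini-Hochberg adjustment over all of them. Where a line had no signal well above background, the fold was counted against the lowest signal that was, which leaves out the spread between flasks. Of several probes the brightest over the 4 arrays stands for the gene.

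The members and gene lists were chosen with earlier results of these data known. Called members, those changed at least 2-fold and 7 drug efflux genes were named in full by rule. Values of some members are not reported here, though counts and medians include them. The methods' t-test was an alternative. With 2 flasks per line the smallest p of an exact two-sided permutation test is 0.333, and precision is limited by the number of arrays. Accessions of 62 of the 65 probes were found in the RefSeq list of GRCh38.p14. Its coordinates were not used, and probe positions are those of the scanner files (hg19).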

Additional observations from a re-analysis of the deposited data

How the results depend on the processing

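The number of ABC probes called, 1, was 1 under quantile normalization, with no filter on dim probes, with detection required on all arrays, with the deposited log2 table and with no fold minimum. It was 3 with normexp after bright local backgrounds were reset, 5 after scale normalization, 3 after a shift to the median, 2 with an intensity trend and 6 at 2-fold without a test. It was 0 with normexp at an offset of 50 (2 at an unadjusted p below 0.05 by limma) and 0 by the methods' t-test (6 unadjusted). With 1 flask left out it ranged from 0 to 8. ABCC6 was among the called probes in every setting that called any, and its adjusted p was 0.763 with normexp and 0.13 by the methods' t-test. Over all probes the count of 1486 was 0 with normexp (930 unadjusted), 0 by the methods' t-test (4157 unadjusted), 760 with detection on all arrays, 3462 at 2-fold without a test, and 727 to 4534 with 1 flask left out. The share of higher calls, 43.7%, was 55.3% without the second naive flask.

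For the companion genes the count of 1 was 0 with normexp, quantile normalization, no filter, detection on all arrays, the methods' t-test and the deposited table, with 2 to 5 at an unadjusted p below 0.05 in each, 3 with normexp after the reset, 2 after scale normalization, 3 with an intensity trend, 4 at 2-fold without a test, and 0 to 5 with 1 flask left out. After a shift to the median it was 1, TAP1 in place of MGST2.

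The median log2 change of the ABC genes, -0.0073, was 0.158 with normexp, 0.0383 after quantile and 0.087 after scale normalization, 0.0376 after a shift to the median, -0.0795 with no filter, -0.0509 with the mean over a gene's probes, and -0.17 to 0.0231 with 1 flask left out. Over all probes the median log2 change shifted by 0.149 under normexp and by 0.103 under scale normalization. The log2 change reversed in ABCC4 (0.15) and ABCG2 (0.20) with normexp, and in ABCC2 (-0.51 to 0.83 with 1 flask left out, -0.51 without the first naive flask). Causes were not tested.

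With the replicate number as a block, 1373 probes were called, of which 1 was an ABC probe (ABCC6, adjusted p = 0.0207), and 0 companion genes (4 unadjusted). The deviations of same-numbered flasks from the means of their lines correlated at 0.119 over the probes tested. Nothing in the labels says that a number pairs the flasks. All arrays lay on 1 slide, so that the slide could not be a block.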
